A study of Mus musculus with 11 samples.

Results

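The urea cycle genes described here are the 7 genes *Cps1*, *Otc*, *Ass1*, *Asl*, *Arg1*, *Nags* and *Slc25a15*, taken by symbol from the 31053 genes measured, and all 7 were found and passed the filter on low counts. They were followed in 11 mouse liver sections on the Visium assay. This assay captures the 3′ ends of transcripts on a grid of barcoded spots that each cover several cells. The groups were 3 uninjured sections at 0 h (replicates 2, 3 and 4) and injured sections at 24 h (A and B), 36 h (A and B) and 48 h (A, B, C and D) after acetaminophen (APAP). The sample labels give the injured sections the disease term POD, and the series design text gives the injury as APAP-induced. Per the study's methods the mice were adult C57BL/6JCrl males given APAP by intraperitoneal injection after a fast, and whether the 0 h mice were fasted is not given in the sources used here. The methods count 1 mouse per time point for this assay, so every p-value below covers only the spread between sections, which may come from the same mouse, and mouse and time cannot be told apart.

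The urea cycle converts the ammonia released by amino acid breakdown into urea and runs across both the mitochondria and the cytosol of hepatocytes. In the mitochondria, *Nags* makes N-acetylglutamate, the activator that *Cps1* needs to join ammonia and bicarbonate into carbamoyl phosphate. *Otc* transfers this to ornithine to give citrulline, and the carrier *Slc25a15* brings ornithine in and takes citrulline out. In the cytosol, *Ass1* joins citrulline to aspartate, *Asl* splits the product into arginine and fumarate, and *Arg1* splits arginine into urea and ornithine. The cycle is known as a function of hepatocytes away from the central vein, whereas those touching it carry glutamine synthetase (*Glul*), which takes up leftover ammonia. APAP is known to kill hepatocytes around the central vein first.

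In the GRCm38 (mm10) annotation the 7 protein-coding genes lie on 7 chromosomes. *Cps1* spans chr1:67123026-67231259 (+), *Otc* chrX:10252305-10321024 (+), *Nags* chr11:102145513-102149477 (+), *Slc25a15* chr8:22375551-22398597 (−), *Ass1* chr2:31470207-31520672 (+), *Asl* chr5:130011258-130029247 (−) and *Arg1* chr10:24915221-24927484 (−). RefSeq promoter windows of the GRCm38.p6 build were matched for 4 of the 7 genes. Those of the genes that differed most in their course after injury are printed below as the 250 bases before the RefSeq start, 5′ to 3′ on the gene's strand, with capitals marking GGGCGG on either strand. They are *Otc*, low at all 3 injured times, *Ass1*, low at 24 h and back at 36 h, and *Nags*, not called at any time under the main (TMM) scaling.
Otc, chrX:10252055-10252304: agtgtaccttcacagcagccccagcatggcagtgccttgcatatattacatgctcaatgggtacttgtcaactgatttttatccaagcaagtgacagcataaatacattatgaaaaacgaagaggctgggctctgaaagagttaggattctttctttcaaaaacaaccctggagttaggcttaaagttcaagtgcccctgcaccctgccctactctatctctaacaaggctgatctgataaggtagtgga
Ass1, chr2:31470020-31470269: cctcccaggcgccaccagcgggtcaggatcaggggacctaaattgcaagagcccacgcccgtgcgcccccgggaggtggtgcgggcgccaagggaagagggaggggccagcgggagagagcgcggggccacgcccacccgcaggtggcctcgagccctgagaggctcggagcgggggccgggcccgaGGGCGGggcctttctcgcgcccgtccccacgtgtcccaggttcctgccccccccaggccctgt
Nags, chr11:102145263-102145512: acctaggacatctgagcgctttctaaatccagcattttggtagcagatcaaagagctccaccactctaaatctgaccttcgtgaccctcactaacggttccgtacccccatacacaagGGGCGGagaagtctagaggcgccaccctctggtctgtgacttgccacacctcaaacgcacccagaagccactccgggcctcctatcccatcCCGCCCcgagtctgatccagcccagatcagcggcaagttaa

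The windows differ in base composition, with 43.6% G and C for *Otc*, 75.6% for *Ass1* and 55.6% for *Nags*. Searched on both strands, the letters GGGCGG occur 63 bases before the RefSeq start of *Ass1* and 132 and 41 bases before that of *Nags*. They occur in 32.7% of all 32851 promoter windows. The *Ass1* window runs to base 31470269, past the start of the gene span given above (31470207). Its match therefore does not lie before that other start. None of the 3 windows held TTGCNNAA, TATAAA or CAAAGTCC, which occur in 9.56%, 12.4% and 1.2% of all windows. A match is a run of letters and not a binding site, and its absence says only that the letters are not in that window.

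Passing spots numbered 1490 to 3466 per section (25136 in all), with 31292663 to 67045372 UMIs (single captured transcript molecules) per section and a median of 15168.5 to 29950 UMIs per spot. Levels below are CPM (counts per 10 to the power 6 UMIs) summed over the spots of a section and scaled by TMM, which sets sections level on the bulk of their genes. The TMM factors were 0.78 to 0.81 at 0 h and 0.98 to 1.17 after injury. Scaling by total count moved the median of all genes up by 0.372, 0.485 and 0.537 on the log2 scale at 24, 36 and 48 h against 0 h. Hepatocyte transcripts (*Alb*, *Ttr*, *Hp*, *Hnf4a*, *Apoa1* and *Cyp2e1* summed) were present in every section, at 109755 to 114754 CPM at 0 h and 72897 to 99076 CPM after injury. By total count these sums overlapped, at 88321 to 90829 CPM at 0 h and 83584 to 104141 CPM after injury. Markers of some other cells were higher after injury: summed neutrophil markers (4 genes) stood at 1.98 to 7.86 CPM at 0 h and 20.9 to 136 CPM after injury. Myofibroblast markers (4 genes) stood at 37.5 to 45.9 CPM at 0 h and 483 to 1185 CPM at 48 h. Of these 4, 1, 4 and 4 were called higher at 24, 36 and 48 h. Of 4 phagocyte markers 1, 1 and 3 were. Summed endothelial markers (7 genes) overlapped, at 247 to 283 CPM at 0 h and 202 to 325 CPM after injury. Each comparison of time points was therefore also made on the spots below each section's median score for phagocyte, neutrophil and myofibroblast markers, a step added after seeing the data. Fewer hepatocytes and less RNA per hepatocyte cannot be told apart in spots that mix cells.

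Most urea cycle transcripts were low at 24 h and took separate courses afterwards. The 7 genes summed to 5136, 5198 and 4624 CPM in the 3 sections at 0 h and to 1864 and 2007 CPM at 24 h. The sum was 4137 and 5910 CPM at 36 h and 5159, 4745, 4320 and 3347 CPM at 48 h. The 24 h sections were thus the lowest of the 11, while the ranges at 36 and 48 h overlapped with that at 0 h.

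Of the mitochondrial genes, *Cps1*, the entry enzyme, measured 1891, 1975 and 1850 CPM at 0 h and 660 and 609 CPM at 24 h. At 36 h it measured 1444 and 1758 CPM, and at 48 h 2156, 2411, 1898 and 1543 CPM. The 24 h sections lay far below the rest. Both 36 h sections lay below the 3 at 0 h under TMM scaling, whereas by total count 36 h B lay above them and the fitted change turned to 0.18. *Otc* measured 490, 460 and 475 CPM at 0 h and 124 and 102 CPM at 24 h. Its level was 271 and 199 CPM at 36 h and 241, 306, 225 and 290 CPM at 48 h. All 8 injured sections lay below the 3 at 0 h, and those at 36 and 48 h overlapped with each other and not with 24 h. *Slc25a15*, the ornithine carrier, measured 201, 218 and 219 CPM at 0 h and 88.0 and 91.6 CPM at 24 h. At 36 h it measured 100.2 and 239 CPM, and at 48 h 116, 115, 97.1 and 102 CPM. Apart from 36 h B, which was the highest of all, the injured sections lay below those at 0 h. *Nags*, which makes the activator of the entry step, measured 57.3 to 82.2 CPM over the 11 sections. Its levels at each injured time overlapped with those at 0 h.

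Of the cytosolic genes, *Ass1* measured 1021, 1217 and 855 CPM at 0 h and 232 and 242 CPM at 24 h. Its level was 735 and 1271 CPM at 36 h and 1091, 731, 776 and 636 CPM at 48 h. The 24 h sections again stood alone at the bottom. *Asl* measured 395, 359 and 339 CPM at 0 h and 196 and 242 CPM at 24 h. At 36 h it measured 613 and 1007 CPM, and at 48 h 413, 321, 329 and 251 CPM. Both 36 h sections lay above every other section, and 48 h overlapped with 0 h. *Arg1*, which releases urea, measured 1059, 902 and 811 CPM at 0 h and 493 and 638 CPM at 24 h. Its level was 906 and 1375 CPM at 36 h and 1071, 780, 930 and 468 CPM at 48 h. The 24 h sections lay below those at 0 h, and 48 h D lay below both of them. Over all genes, the sections at 36 h differed more than any other pair within a time point (chi-square per gene 226). Among the urea cycle genes, 36 h B was higher than 36 h A for *Ass1*, *Asl*, *Arg1* and *Slc25a15* and lower for *Otc*. For *Arg1*, however, 48 h A and D lay further apart, at 1071 and 468 CPM.

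**Figure D1:**
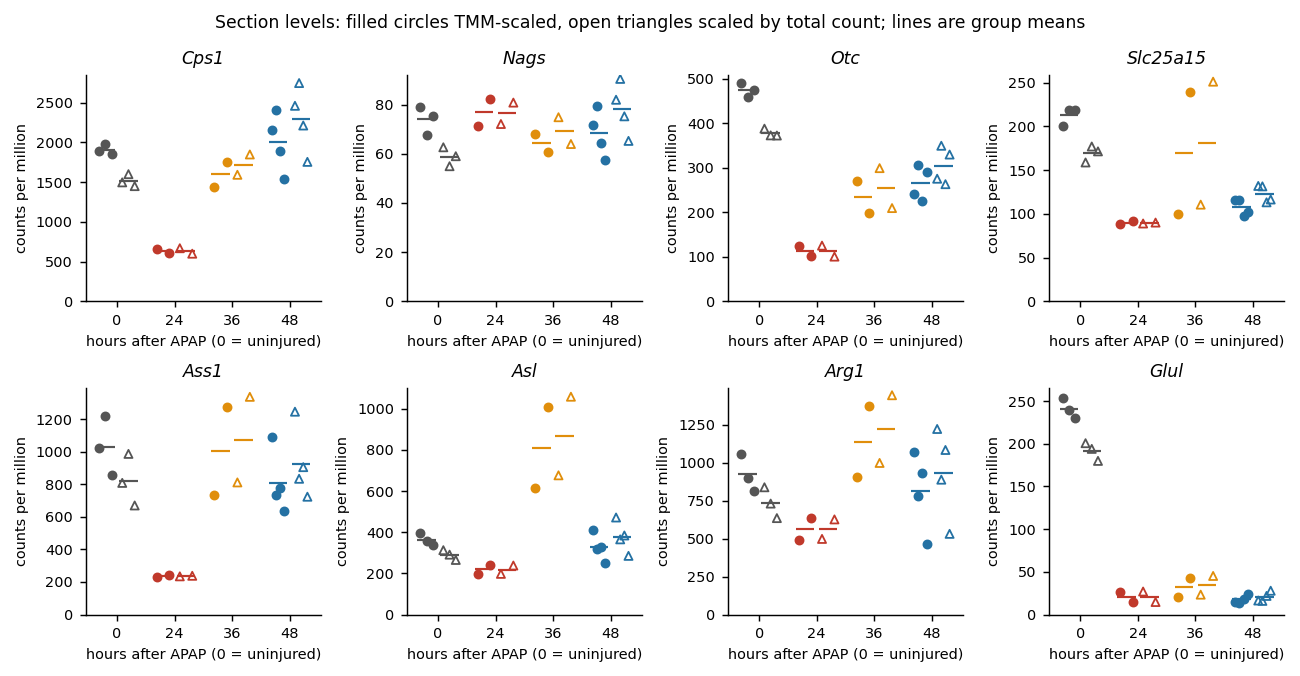
Level of each urea cycle gene (CPM, axis from 0) by hours after APAP, 1 point per section, with filled circles for TMM scaling, open triangles for total-count scaling and lines for the group means of n = 3, 2, 2 and 4 sections. *Cps1* and *Ass1* were lowest in both 24 h sections, *Otc* stayed below 0 h at every injured time, and *Asl* was highest in both 36 h sections.

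Tested against 0 h with edgeR's quasi-likelihood test over 14821 genes and Benjamini-Hochberg adjustment, 5 of the 7 genes were lower at 24 h, where 18.6% of all genes tested were lower. The log2 fold change was −2.12 ± 0.29 (SE) for *Ass1* (mean 1031 ± 181 CPM, SD, n = 3, to 237 ± 7.21 CPM, n = 2; adjusted p = 0.00031 in edgeR), and −2.07 ± 0.18 for *Otc* (adjusted p = 3.91e-05). *Cps1* fell by 1.59 (SE 0.18) and *Slc25a15* by 1.24 (SE 0.28) on the same scale, with adjusted p = 0.000127 and 0.00523. *Asl* was the smallest of the calls at −0.73 ± 0.24 (adjusted p = 0.0283), a call that was lost under total-count scaling (−0.41) and without 0 h replicate 2 (adjusted p = 0.0639), 24 h A or 24 h B. It was also lost in the spots below the median marker score (−0.66, adjusted p = 0.0611 in edgeR), where the other 4 calls were made too. *Arg1* (−0.71 ± 0.31, adjusted p = 0.0917) did not pass, though it did without 48 h D (adjusted p = 0.0261 in edgeR). *Nags* (0.05 ± 0.14) did not pass either, although total-count scaling put *Nags* at 0.38 (adjusted p = 0.0458). The median log2 fold change of the 7 genes was −1.24, beside 0.05 for all genes tested.

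At 36 h against 0 h, 2 of the 7 genes passed, in opposite directions, where 29.2% of all genes passed in either direction. *Asl*, which yields arginine, rose by 1.15 ± 0.23 in log2 (364 ± 28.6 CPM, n = 3, to 810 ± 278 CPM, n = 2; adjusted p = 0.00493 in edgeR), a 2.22-fold higher level. *Otc* remained lower, at −1.01 ± 0.18 (adjusted p = 0.00272). Both were called under total-count scaling and in the spots below the median marker score as well. The median of the 7 genes was −0.20. *Slc25a15* was not called (−0.33 ± 0.27), and the value rested on which 36 h section was used, being −1.09 (adjusted p = 0.00162) without 36 h B and 0.16 without 36 h A.

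At 48 h against 0 h, *Otc* (−0.84 ± 0.14, adjusted p = 0.000917 in edgeR) and *Slc25a15* (−0.98 ± 0.22, adjusted p = 0.00508) were lower, 2 of 7 where 20.9% of all genes were lower. Both act on ornithine in the mitochondria. The other 5 genes were not called, with log2 fold changes from −0.35 (*Ass1*) to 0.07 (*Cps1*), and the median of the 7 was −0.19. These 48 h values depended on scaling. Under total-count scaling *Otc* (−0.31, adjusted p = 0.0849) and *Slc25a15* (−0.46, adjusted p = 0.0795) no longer passed. *Cps1* (0.60, adjusted p = 0.00424) and *Nags* (0.41, adjusted p = 0.0121) then passed as higher. In the spots below the median marker score, *Otc* was still lower (−0.42, adjusted p = 0.0271 in edgeR), *Slc25a15* no longer passed (−0.65, adjusted p = 0.0604) and *Cps1* passed as higher (0.49, adjusted p = 0.028). There the log2 fold changes of *Ass1*, *Asl*, *Arg1* and *Nags* turned to 0.065, 0.22, 0.22 and 0.15, none of them called.

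**Figure D2:**
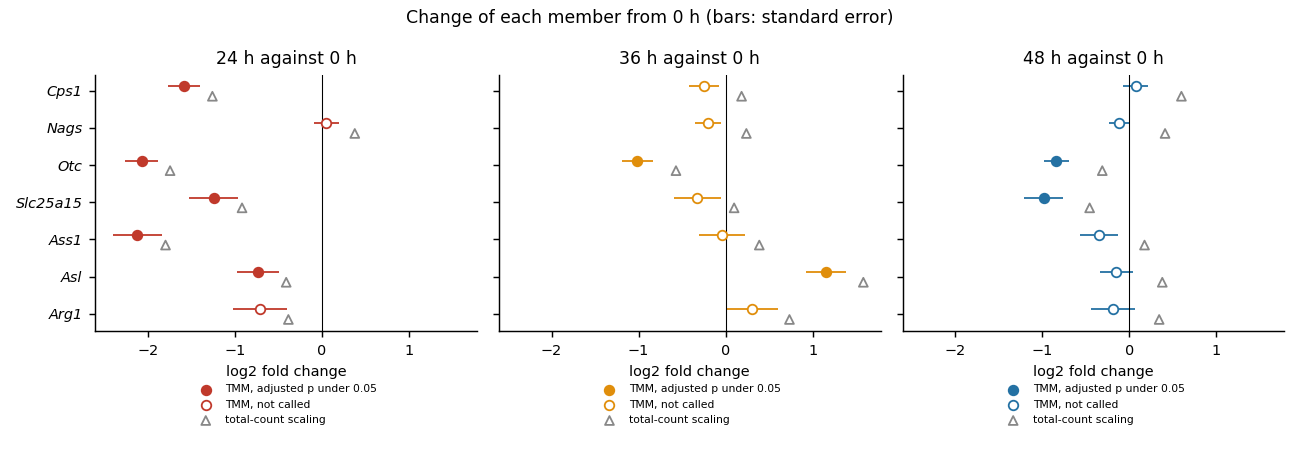
Log2 fold change of each urea cycle gene at 24, 36 and 48 h against 0 h, as circles with standard-error bars under TMM scaling (filled where adjusted p was under 0.05) and as grey triangles under total-count scaling. At 24 h 5 genes were lower under TMM; at 48 h only *Otc* and *Slc25a15* were called lower under TMM, and the triangles put the other 5 genes above 0.

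Between injured time points, levels rose after 24 h. From 24 h to 36 h, 4 of the 7 genes rose, where 7.04% of all genes did. They were *Ass1* by 2.08 ± 0.30 in log2, *Asl* by 1.89 ± 0.26, *Cps1* by 1.33 ± 0.19 and *Otc* by 1.06 ± 0.19 (adjusted p from 0.00375 to 0.00829 in edgeR). The *Otc* call was lost without 24 h B (adjusted p = 0.0504), and fitted on these 4 sections alone none of the 7 passed and 1 gene passed in all. *Arg1* and *Slc25a15* were called as higher without 36 h A. From 24 h to 48 h, *Ass1* (1.77 ± 0.27), *Cps1* (1.66 ± 0.18) and *Otc* (1.24 ± 0.17) rose (adjusted p from 0.000329 to 0.00124 in edgeR), 3 of 7 where 16.2% of all genes rose; without 36 h B or 48 h D, 5 of 7 did. From 36 h to 48 h, *Asl* alone was lower (−1.30 ± 0.21, adjusted p = 0.0186 in edgeR), 1 of 7 where 1.43% of all genes were lower. The call was lost when 48 h B or 48 h C was left out, in the fit on the sections of those times alone, and in the spots below the median marker score (adjusted p = 0.0503 in edgeR). *Nags* was not called in any of the 6 comparisons of time points under TMM scaling.

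The genes that feed and drain the cycle gave a wider background. Of 12 genes of ammonia and glutamine handling, 5, 3 and 7 were lower and 1 was higher at 24, 36 and 48 h against 0 h. Of all genes tested, 18.6%, 12.4% and 20.9% were lower and 23.1%, 16.8% and 23.3% higher at these times, which is the background for the 4 lists given here. *Glul*, glutamine synthetase, measured 254, 239 and 230 CPM at 0 h and then 26.7 and 14.9 CPM at 24 h, 21.1 and 43.0 CPM at 36 h, and 14.0 to 24.5 CPM at 48 h. No injured section came near the 0 h range (log2 fold change −3.53, −2.91 and −3.75; adjusted p from 2.51e-05 to 0.000862 in edgeR). *Slc1a2*, a glutamate transporter of the cells around the central vein, was the steepest at −7.46, −6.41 and −5.88 in log2, from 40.1 to 44.8 CPM at 0 h to at most 1.03 CPM after injury. *Rhbg*, an ammonia transporter, was lower at −2.69, −3.24 and −3.10. The loss of *Glul* was thus called at all 3 times, whereas 5 of the 7 urea cycle genes were not called against 0 h at 48 h.

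Ornithine and arginine use was split. Of 10 genes tested, 3, 3 and 4 were higher and 4, 3 and 3 lower at 24, 36 and 48 h, beside 23.1%, 16.8% and 23.3% of all genes higher and 18.6%, 12.4% and 20.9% lower. *Oat*, which breaks ornithine down and is known from the cells around the central vein, measured 233 to 307 CPM at 0 h and 24.6 to 36.6 CPM in the injured sections (log2 −3.31, −3.19 and −2.97). *Aldh18a1*, which makes the precursor of proline and ornithine from glutamate, rose from 1.36 to 2.04 CPM at 0 h to 4.39 to 14.3 CPM after injury (2.63, 1.45 and 1.83 in log2). *Srm*, spermidine synthase of the polyamine route that starts from ornithine, rose by 1.89, 0.86 and 0.71.

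Of 10 genes of transport and bicarbonate supply, 6, 2 and 6 were lower and 1 was higher at each time, beside the same shares of all genes. *Car5a*, the mitochondrial carbonic anhydrase that supplies bicarbonate to *Cps1*, was lower at −1.63, −0.89 and −1.22 in log2. *Slc7a1*, a cationic amino acid transporter scarce in normal liver, was higher at 2.48, 1.53 and 1.51, from 0.55 to 0.76 CPM at 0 h to 1.54 to 3.64 CPM after injury. *Slc7a2*, the main hepatic transporter of this kind, was lower at 24 h (−1.57, adjusted p = 0.0144 in edgeR) and not called later, with 226 CPM in 36 h B against 88.8 CPM in 36 h A. Of 12 regulators of urea cycle genes, 4, 2 and 6 were lower, beside 18.6%, 12.4% and 20.9% of all genes, and none was higher. *Nr3c1*, the glucocorticoid receptor, was lower at −0.95, −0.56 and −0.47. *Ppara* (−0.85 and −1.24) and *Creb3l3* (−0.70 and −0.90), 2 factors of the fasting response, were lower at 24 and 48 h and not called at 36 h. Of the 67 calls in these 4 lists, 4 had the other sign under total-count scaling, all at 48 h, and of the genes named above *Nr3c1* was among them.

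Across the 11 sections, the genes closest in course to the mean of the 7 (Pearson r of log2 CPM with their mean standardised log2 CPM, among 7093 genes of at least 10 CPM) were *Hpd* (0.964) and *Tat* (0.955), both of tyrosine breakdown. Next were *Ctso* (0.953), a lysosomal protease, *Dbt* (0.949), of branched-chain amino acid breakdown, and *Cisd3* (0.949), a mitochondrial iron-sulphur protein. *Hpd* ran from 1269 to 1486 CPM at 0 h to 383 and 443 CPM at 24 h and 971 and 1341 CPM at 36 h. At 48 h it measured 903, 816, 862 and 641 CPM, below every section at 0 and 36 h. The members' own r with that mean, which each helped to form, was 0.92 for *Ass1*, 0.85 for *Arg1*, 0.83 for *Cps1*, 0.81 for *Slc25a15*, 0.76 for *Otc*, 0.71 for *Asl* and 0.03 for *Nags*. These r values are descriptions over sections that share a time point and a scaling.

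To ask where in the lobule the genes lay, the hepatocyte-rich spots of each section were ranked from central to portal with the study's mouse zonation genes. None of these is a urea cycle gene. Hepatocyte-rich spots were those with a score for *Alb*, *Ttr*, *Hp*, *Hnf4a* and *Apoa1* not below the 1st percentile of 0 h spots. This limit removed 14 to 39 spots per section at 0 h, 0 at 24 and 36 h, and 2 to 32 at 48 h. Nearly all spots of injured sections were thus ranked, including those rich in markers of other cells. The ranking was split into 3 groups of equal size. The highest-ranked group is called portal and the lowest-ranked central. At 0 h the ranking separated genes it did not use. The 8 held-out central genes summed to 386 to 484 CPM in portal and 1535 to 1780 CPM in central spots, and *Glul* was lower in portal spots by 1.89 in log2. After injury the central list used for the ranking separated the groups less, with 10568 to 12879 CPM in portal and 10595 to 15363 CPM in central spots at 24 h. It summed to 11210 to 16105 CPM in portal and 11152 to 17744 CPM in central spots at 36 h. At 48 h these sums were 14381 to 18786 and 13572 to 18987 CPM, so the ranges of the groups overlapped at each injured time. Of the 8 held-out central genes, all 8 were lower in portal spots at 0 h and 5, 5 and 7 at 24, 36 and 48 h.

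At 0 h, 6 of the 7 genes were higher in portal than in central spots, where 8.54% of 13790 genes were (edgeR with section as a block). *Arg1* had the steepest ratio, with log2 portal over central of 0.68, 0.60 and 0.58 in the 3 sections, and *Ass1* followed with 0.67, 0.64 and 0.52. *Asl* (0.51, 0.38 and 0.40), *Cps1* (0.41, 0.42 and 0.32) and *Otc* (0.35, 0.29 and 0.42) overlapped with each other. *Slc25a15* was shallow at 0.19, 0.11 and 0.15 (fitted 0.15 ± 0.04, adjusted p = 0.00742 in edgeR, and 0.181 without 0 h replicate 2 or 0.0833 without replicate 4), and *Nags* showed no slope that was called, at 0.05, −0.16 and 0.07. The 3 cytosolic enzymes thus had the highest fitted slopes (0.43 to 0.62), above *Cps1* (0.38) and *Otc* (0.35), whose values overlapped with those of *Asl*.

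The portal side remained higher after injury, with 7 of 7 genes at 24 h (13.3% of all genes higher), 6 of 7 at 36 h (10.7%; *Nags* 0.17, adjusted p = 0.141 in edgeR) and 7 of 7 at 48 h (25.4%). General hepatocyte genes were higher on the portal side too. The 5 tested (*Alb*, *Ttr*, *Hp*, *Hnf4a* and *Apoa1*) were all called higher at 24, 36 and 48 h, and 3 of them at 0 h. Their median log2 ratios were 0.18, 0.58, 0.33 and 0.49 at 0, 24, 36 and 48 h. Those of the 7 urea cycle genes were 0.38, 0.48, 0.53 and 0.76. At 24 h the hepatocyte list summed to 100523 to 118585 CPM in portal and 67912 to 74724 CPM in central spots. At 24 h the slopes of *Otc* (0.77 and 0.81) and *Slc25a15* (0.54 and 0.42) lay above their 0 h ranges. So did those of *Cps1* (0.53 and 0.49) and *Nags* (0.18 and 0.24). *Ass1* was shallower at 24 h, at 0.47 and 0.21. Total-count scaling ended the calls of *Nags* at 24 and 48 h, with its slope turned at 24 h (−0.021) and 36 h (−0.027), of *Ass1* at 24 h (0.11) and of *Slc25a15* at 0 h (0.091). Of the 24 h calls, that of *Ass1* was lost without 24 h A, and that of *Nags* without 24 h A, 24 h B or 36 h B. At 48 h under TMM scaling, all 4 sections were steeper than all 3 at 0 h for each of the 7 genes. The ratios were 0.66 to 0.75 for *Cps1*, 0.91 to 1.04 for *Arg1* and 0.70 to 0.84 for *Slc25a15*. *Glul*, in contrast, lost most of its slope (log2 portal over central −0.37 at 24 h, 0.03 at 36 h and −0.42 at 48 h). The ranked spots were also cut into 10 bins and scaled by total count. There the ratio of the most portal to the most central bin overlapped between 48 h and 0 h for every member but *Slc25a15*. For *Ass1* it was 1.62 to 1.71 at 48 h and 1.70 to 2.03 at 0 h.

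The change of slope against 0 h was tested as an interaction. At 24 h, 3 of the 7 genes passed, where 16.5% of all genes passed in either direction. *Otc* was steeper by 0.43 ± 0.08 and *Slc25a15* by 0.33 ± 0.07, and *Ass1* was shallower at −0.27 ± 0.09 (adjusted p = 0.000237, 0.00107 and 0.0336 in edgeR). Of the 5 general hepatocyte genes, 4, 3 and 3 were called steeper at 24, 36 and 48 h. Their median changes were 0.35, 0.24 and 0.42, beside 0.12, 0.18 and 0.37 for the 7 urea cycle genes. The *Slc25a15* call was lost under total-count scaling (adjusted p = 0.167 in edgeR). The *Ass1* call was lost without 0 h replicate 2 or 3, 24 h B, or 48 h B, C or D (adjusted p from 0.0639 to 0.462). At 36 h *Slc25a15* (0.37 ± 0.07) and *Asl* (0.21 ± 0.07) were steeper, 2 of 7 where 8.93% of all genes were, and the *Asl* call was lost without 0 h replicate 3 or 4 or 36 h A and under total-count scaling. At 48 h all 7 were steeper, by 0.27 (*Ass1*; adjusted p = 0.0522 in edgeR without 0 h replicate 4) to 0.60 (*Slc25a15*), where 19.0% of all genes were. Total-count scaling left 4 of the 7 calls at 48 h and thinning each spot to 2000 UMIs left 3. With the 8 injured sections pooled against the 3 at 0 h, exact two-sided permutation over sections gave p = 0.0121, the smallest it can give, for *Otc*, *Nags* and *Slc25a15*, 0.0364 for *Cps1*, 0.0606 for *Asl*, 0.364 for *Arg1* and 0.63 for *Ass1* (7 tests, unadjusted).

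Portal and central spots at 48 h also differed in markers of other cells, and whether this accounts for the steeper slope was not tested. In 48 h sections the summed myofibroblast markers measured 249 to 783 CPM in portal and 602 to 1348 CPM in central spots. Phagocyte markers measured 430 to 936 and 872 to 1537 CPM, and the hepatocyte list 91028 to 112684 and 62934 to 74376 CPM. In the spots below the median marker score, only 2 of the 7 genes still differed in slope from 0 h at 48 h, where 12.3% of all genes passed in either direction. One was *Slc25a15*, steeper by 0.23 ± 0.06 (adjusted p = 0.00362 in edgeR), and the other *Cps1*, now shallower at −0.19 ± 0.04 (adjusted p = 0.00198). In the same spots *Otc* was steeper at 24 h by 0.27 ± 0.08, *Nags* was steeper by 0.36 ± 0.09, and *Ass1* (−0.36 ± 0.10) and *Arg1* (−0.18 ± 0.06) were shallower (9.04% of all genes). At 36 h *Cps1* (−0.23 ± 0.05) and *Arg1* (−0.33 ± 0.06) were shallower (6.06%). The portal side was still higher within each time point, for 6, 7, 6 and 6 of the 7 genes at 0, 24, 36 and 48 h (15%, 15.4%, 6% and 20.2% of all genes passing in either direction), the exception being *Nags* at 0, 36 and 48 h.

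**Figure D3:**
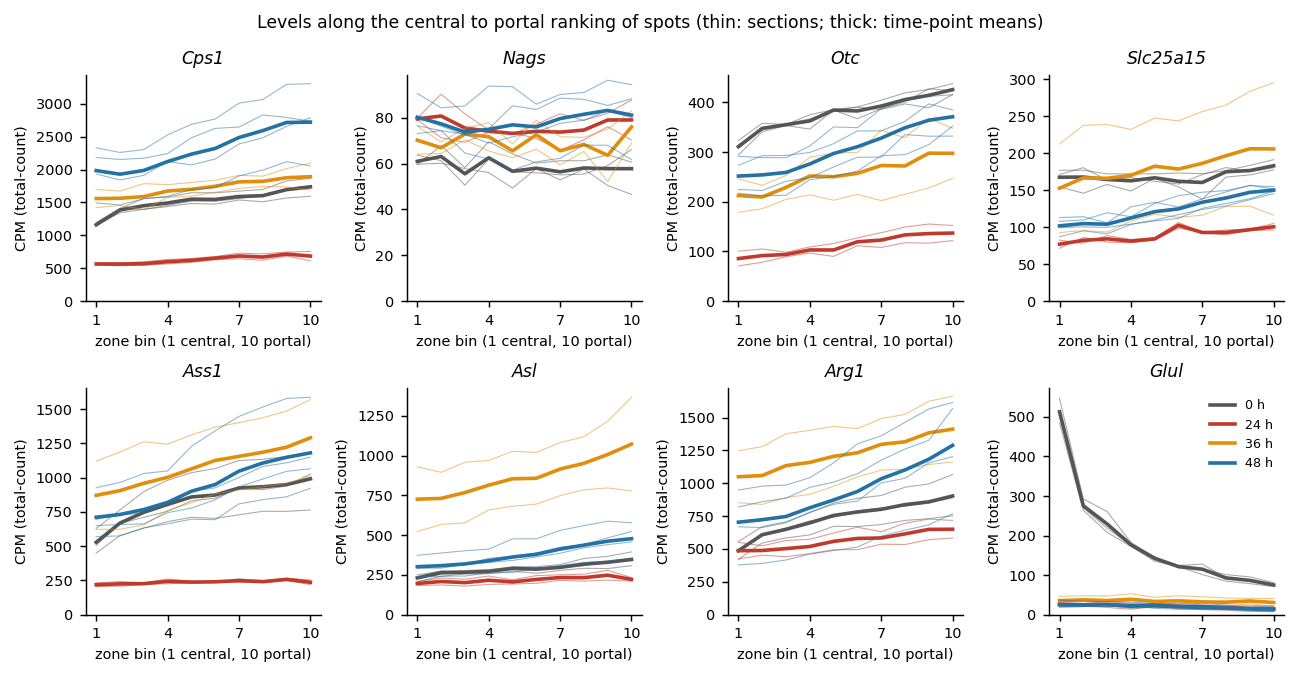
Level of each urea cycle gene and of *Glul* (total-count CPM, axis from 0) over 10 equal-sized bins of spots ranked from central (1) to portal (10) in each section, with thin lines for sections and thick lines for the means at 0 h (grey), 24 h (red), 36 h (orange) and 48 h (blue). *Glul* falls from bin 1 to bin 10 at 0 h and is low with a smaller fall after injury. Its ratio of bin 10 to bin 1 was 0.13 to 0.16 at 0 h and 0.35 to 0.88 after injury. *Ass1* and *Arg1* climb towards bin 10 at 0, 36 and 48 h.

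**Figure D4:**
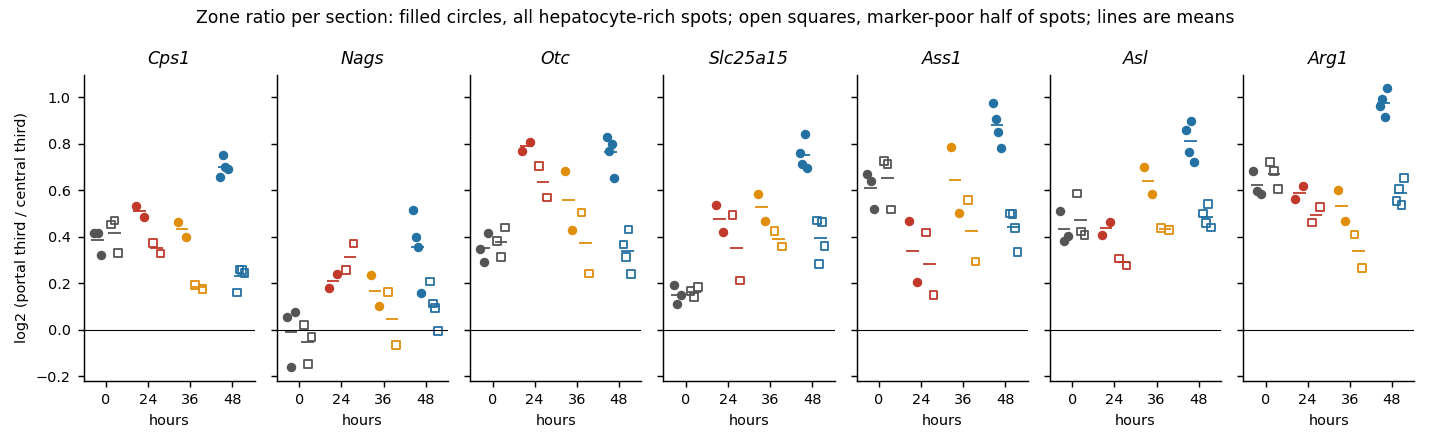
Log2 ratio of the portal over the central group of spots for each gene and section by hours after APAP, as filled circles for all hepatocyte-rich spots and open squares for spots below the median marker score, with lines for the means. Under the TMM scaling shown, filled circles at 48 h lie above those at 0 h for all 7 genes. The open squares at 48 h overlap with those at 0 h for *Otc*, *Asl*, *Arg1* and *Nags*.

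The same markers were then used to set spots apart directly. In each section, the 1 in 10 spots with the highest score for phagocyte, neutrophil and myofibroblast markers (149 to 346 spots) were called marker-rich and compared with the spots below the section's median score, called marker-poor. At 0 h none of the 7 genes differed, where 0.752% of 13821 genes passed in either direction in edgeR and 1763 genes had an unadjusted p under 0.05. DESeq2 also called none of the 7. After injury all 7 genes were lower in marker-rich spots at 24 h (16.5% of all genes lower), 36 h (16.8%) and 48 h (33.3%), with the *Nags* call at 24 h lost without either 24 h section. Total-count scaling ended the calls of *Ass1* and *Nags* at 24 h and of *Nags* at 36 h.

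*Cps1* had the most negative fitted ratio at 36 and 48 h, and *Otc* was level with it at 24 h. Marker-rich and marker-poor spots measured 1981 and 2016, 1998 and 2098, and 1720 and 1994 CPM in the 3 sections at 0 h. They measured 454 and 737, and 373 and 712 CPM at 24 h, and 930 and 1713, and 1032 and 2242 CPM at 36 h. At 48 h they measured 812 and 2960, 846 and 3367, 609 and 2878, and 546 and 2146 CPM. The marker-poor spots of every 48 h section thus lay above those of every 0 h section, under TMM scaling fitted over these groups of spots, while the marker-rich spots lay below all of those at 0 h.

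The fitted log2 ratio at 48 h was −2.02 ± 0.07 for *Cps1*, −1.79 ± 0.06 for *Otc*, −1.78 ± 0.06 for *Arg1*, −1.74 ± 0.06 for *Ass1*, −1.50 ± 0.07 for *Slc25a15*, −1.47 ± 0.07 for *Asl* and −1.29 ± 0.07 for *Nags*. At 24 h the same ratio ran from −0.81 (*Cps1* and *Otc*) to −0.37 (*Ass1*), and at 36 h the most negative was that of *Cps1* (0.50-fold the marker-poor level) and the least that of *Nags* (−0.60). General hepatocyte genes were lower in marker-rich spots at 48 h too, *Alb* by 1.54, *Hp* by 1.39, *Ttr* by 1.34, *Hnf4a* by 1.14, *Cyp2e1* by 0.92 and *Apoa1* by 0.86. *Cps1*, *Otc*, *Arg1* and *Ass1* thus had a lower ratio than any of these 6 genes at 48 h, a difference that was set side by side and not tested. None of the 6 is in the portal list used for the zone ranking. That list was lower in marker-rich spots too, with 5105 to 8121 CPM against 16941 to 24265 CPM in marker-poor spots at 48 h. *Glul* went the other way, higher in marker-rich spots at 24 h (0.48 ± 0.14) and 48 h (0.99 ± 0.09, from 10.6 to 21.5 CPM in marker-poor to 22.4 to 37.1 CPM in marker-rich spots), and lower there at 0 h (−0.34 ± 0.08).

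As an interaction with time, the gap was wider than at 0 h for 6 of 7 genes at 24 h (all but *Nags*, −0.24, adjusted p = 0.295 in edgeR; 6.53% of all genes), and for all 7 at 36 h (8.98%) and 48 h (21.5%). Each gene's ratio was lower in all 8 injured sections than in all 3 at 0 h, which gave p = 0.0121 in the exact two-sided permutation test for each of the 7, the smallest it can give. At 24 h the outcome depended on the markers: ranking on myofibroblast markers alone left 2 genes called within 24 h and none for the interaction. Total-count scaling left 3 for the interaction, as did leaving out 0 h replicate 2, 0 h replicate 3 or 24 h B. The *Nags* interaction at 36 h was lost without any 1 of the 0 h sections or 36 h B. The marker-rich spots hold more of other cells by construction, and fewer hepatocytes in a spot and less urea cycle RNA per hepatocyte cannot be told apart there. The markers also set the groups further apart after injury. Summed myofibroblast markers measured 49.3 to 85.3 CPM in marker-rich and 33.7 to 38.9 CPM in marker-poor spots at 0 h. At 48 h they measured 1539 to 3722 and 216 to 583 CPM. The hepatocyte list overlapped between the groups at 0 h and stood at 32406 to 46188 and 98591 to 116338 CPM at 48 h. A wider gap for hepatocyte genes in general was thus built in, and these tests only describe it.

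**Figure D5:**
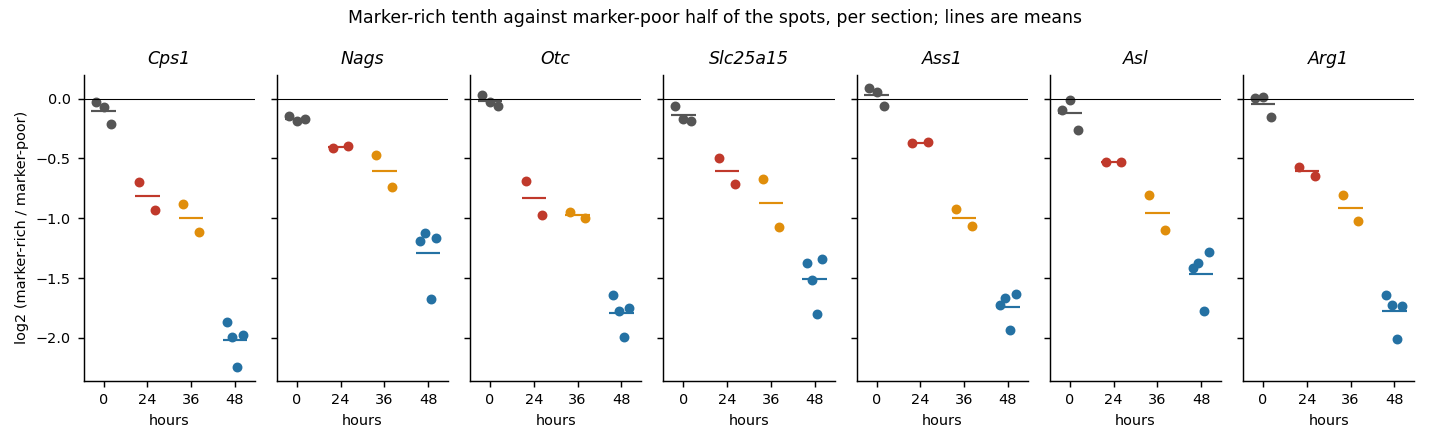
Log2 ratio of marker-rich over marker-poor spots for each urea cycle gene, 1 point per section, by hours after APAP, with lines for the means of n = 3, 2, 2 and 4 sections. The points lie near 0 at 0 h and fall with time to between −1.13 and −2.24 in the 48 h sections.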

How the data were processed

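Visium libraries of 11 mouse liver sections were analysed. The authors' deposited matrices hold raw UMI counts for 31053 genes and 4992 barcodes per section; the submitters' notes name Space Ranger 1.0.0, Seurat 4.1.1 and mm10, and the methods name the Ensembl annotation. Spots on the authors' tissue mask were removed below 800 genes or above 20% mitochondrial UMIs (14 to 103 spots per 0 h section, at most 12 per injured section); isolated spots, which the study removed by hand, were kept. Counts were summed per section, zone or marker group and tested with edgeR 4.0.16 (R 4.3.3; TMM, quasi-likelihood, two-sided, Benjamini-Hochberg over all genes tested, threshold 0.05), with section as a block within sections and DESeq2 1.42.0 as an alternative. Spots were ranked after thinning to 2000 UMIs. The fits were tested on simulated data. The labels name no mouse, slide or run, so a batch cannot be told apart from a time point.

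The planned comparison of hepatocyte-poor spots left at least 20 spots per region in only 1 injured section and was not fitted; the ranking on markers of other cells replaced it after the data were seen. The urea cycle genes and all lists were chosen with earlier results of these data known. Genes named are all 7 members, the up to 3 called genes of each related list with the largest change from 0 h, *Glul*, and the 5 genes closest in course. Promoter sequences are RefSeq's (GRCm38.p6) and gene positions GENCODE's. No pair of sections within a time point held near-identical counts (chi-square per gene 42.1 to 226 over 11 pairs). Images were not used here.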

Additional observations from a re-analysis of the deposited data

Results flagged for a closer look

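Among 21 sets of 4 sections tested at 48 h, 1 held a section set apart from the other 3 by Dixon's ratio (0.878, past its critical value for 4 samples): *Nags* in 48 h C had a log2 ratio of marker-rich over marker-poor spots of −1.68, and the other sections lay between −1.19 and −1.13. Chance alone flags about 1 in 20 such sets.

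The portal over central ratio differed from that at 0 h by a test of the difference (edgeR) in 12 cases. On the log2 scale the change was 0.43 for *Otc*, −0.27 for *Ass1* and 0.33 for *Slc25a15* at 24 h, and 0.21 for *Asl* and 0.37 for *Slc25a15* at 36 h. At 48 h it was 0.32 for *Cps1*, 0.41 for *Otc*, 0.27 for *Ass1*, 0.38 for *Asl*, 0.35 for *Arg1*, 0.37 for *Nags* and 0.60 for *Slc25a15*. Within spots below the median marker score the 48 h change was called for *Cps1* (−0.19) and *Slc25a15* (0.23) and for none of the other 5.

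The marker-rich over marker-poor ratio differed from that at 0 h in 20 cases. The markers used for the ranking set the groups further apart after injury, so these changes are a description. At 24 h the change was −0.71 for *Cps1*, −0.79 for *Otc*, −0.40 for *Ass1*, −0.41 for *Asl*, −0.57 for *Arg1* and −0.46 for *Slc25a15*. At 36 h it was −0.90 for *Cps1*, −0.95 for *Otc*, −1.02 for *Ass1*, −0.84 for *Asl*, −0.87 for *Arg1*, −0.44 for *Nags* and −0.75 for *Slc25a15*. At 48 h it was −1.92 for *Cps1*, −1.77 for *Otc*, −1.77 for *Ass1*, −1.35 for *Asl*, −1.73 for *Arg1*, −1.12 for *Nags* and −1.36 for *Slc25a15*.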

How the results depend on the processing

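The planned comparison of hepatocyte-low spots was not fitted, and of its alternatives only 2 definitions of the regions were run. The labels do not say whether the letters A to D pair sections. Correlations of deviations within a letter ran from −0.29 to 0.39. They cannot decide it, since the 0.39 of 24 h with 36 h is the same for A and B by construction. With the letters as a replicate block the genes called were 82 (0 members) between 36 h and 24 h, 805 between 48 h and 24 h and 0 (0 members) between 48 h and 36 h. Without it they were 2315 (4), 5051 (3) and 452 (1). Fits on only the sections compared called 1 gene (0 members) for 36 h against 24 h and 0 genes (0 members) for 48 h against 36 h, with fewer samples to estimate the spread. DESeq2 called 1224 genes for 48 h against 36 h and 1 member for the change of slope at 36 h, and put *Otc* at 0.020 in marker-rich spots at 0 h.

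Total-count scaling called 7506 genes for 36 h against 0 h (4329 by TMM), 3750 for portal against central spots at 36 h (2465), 166 for marker-rich spots at 0 h (104) and 3763 for their change at 36 h (2117). It called 4 members for the change of slope at 48 h (7 by TMM) and 3 for marker-rich spots, 24 h against 0 h (6). The share of higher genes among the calls against 0 h went from 55.4%, 57.5% and 52.7% to 80.4%, 94.1% and 93.7% at 24, 36 and 48 h. Signs turned at 36 h against 0 h for *Cps1* (0.18), *Ass1* (0.39), *Nags* (0.24) and *Slc25a15* (0.10), at 48 h against 0 h for *Ass1* (0.17), *Asl* (0.38), *Arg1* (0.34) and *Nags* (0.41), and at 48 h against 24 h for *Nags* (0.033). They also turned for the slope of *Nags* at 24 h (−0.021) and 36 h (−0.027), the change of slope of *Cps1* (−0.046) and *Asl* (−0.17) at 24 h and of *Cps1* (−0.089) and *Ass1* (−0.10) at 36 h, and in marker-rich spots at 0 h for *Otc* (0.038) and *Arg1* (0.017).

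Summing only spots below the median marker score (added after seeing the data) called 2778 genes at 36 h and 3811 at 48 h in the comparisons with 0 h, and 63 (0 members) between 48 h and 36 h, and turned *Ass1* at 36 h (0.21) and *Ass1* (0.065), *Asl* (0.22), *Arg1* (0.22) and *Nags* (0.15) at 48 h against 0 h and *Nags* between 48 h and 24 h (0.075). For slopes it called 1972, 767 and 2580 genes at 24, 36 and 48 h, and 1155, 774 and 1570 (2 members) for their changes from 0 h. It turned the change of slope of *Cps1* (−0.066) and *Asl* (−0.18) at 24 h, *Cps1* (−0.23), *Ass1* (−0.23) and *Asl* (−0.040) at 36 h, and *Cps1* (−0.19), *Otc* (−0.040), *Ass1* (−0.21) and *Arg1* (−0.085) at 48 h.

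Thinning spots to 2000 UMIs, which lowers the depth, called 457, 959, 669 and 2298 genes for slopes at 0, 24, 36 and 48 h, and 424, 321 and 968 (1, 1 and 3 members) for their changes. It turned *Nags* at 0 h (0.079) and the changes of *Asl* (−0.19) and *Nags* (−0.0065) at 24 h and *Cps1* (−0.056) and *Ass1* (−0.020) at 36 h. For marker-rich spots it called 35, 1117, 1438 and 4670 genes, and 300 (1 member), 471 and 1927 for the changes. The portal list alone called 1388 genes at 0 h, 3938 at 36 h and 6 members for the change of slope at 36 h, with *Nags* at 0.016 at 0 h and the change of *Arg1* at 0.12 (24 h) and 0.16 (36 h); the outermost 1 in 5 spots on each side put the change of *Asl* at 24 h at −0.040. Myofibroblast markers alone called 6 genes at 0 h, 527 (2 members) at 24 h and 15 (0 members) for the change at 24 h, with *Ass1* at −0.072 at 0 h; phagocyte markers alone called 196 genes at 0 h; the top 1 in 5 spots called 3 members for the change at 24 h. Where no construction is named, the cause was not tested.

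Leaving out each section in turn, genes called ranged from 2643 (without 36 h B) to 4880 between 36 h and 0 h, 450 (without 24 h A) to 3198 between 36 h and 24 h, 2480 (without 24 h A) to 5963 between 48 h and 24 h (3 to 5 members) and 45 (without 48 h B) to 1130 (without 36 h B) between 48 h and 36 h (0 to 2 members). The first was also 2709 and 2770 without 0 h replicates 2 and 3, the second fell to 903 when 24 h B was dropped and to 1338 when 36 h B was, the third was 2960 when 24 h B was dropped, and the last moved by over 1.5 times without every 0 h, 36 h and 48 h section. Slopes ranged from 1359 (without replicate 3; 1451 without replicate 2) to 2349 genes at 0 h, 1860 (without B; 1902 without A) to 3549 at 24 h and 759 (without A) to 2650 at 36 h, and their changes from 1114 (without 24 h B) to 2508 at 24 h and 1080 (without 36 h A; 1356 without 0 h replicate 3) to 2232 at 36 h (1 to 3 members). Marker-rich spots ranged from 29 (without 0 h replicate 3) to 188 (without 48 h C) genes at 0 h, 1958 (without B) to 4065 at 24 h and 2351 (without B) to 4530 at 36 h, and their changes from 374 (without 24 h B; 939 and 1055 without 0 h replicates 2 and 3) to 1751 at 24 h (3 to 6 members) and 1167 (without 36 h B) to 2371 at 36 h. Log2 values that crossed 0 were *Nags* at 24 h (−0.057 to 0.15), *Ass1* (−0.49 to 0.30), *Slc25a15* (−1.09 to 0.16) and *Arg1* (−0.031 to 0.57) at 36 h, *Cps1* (−0.031 to 0.18) and *Arg1* (−0.35 to 0.0056) at 48 h, all against 0 h, and *Otc* (−0.035 to 0.42), *Ass1* (−0.65 to 0.13) and *Slc25a15* (−1.15 to 0.095) at 48 h against 36 h. So did the slope of *Nags* at 0 h (−0.071 to 0.056), the changes of slope of *Arg1* (−0.063 to 0.023) and *Asl* (−0.026 to 0.066) at 24 h and *Ass1* (−0.097 to 0.19) at 36 h, and *Ass1* (−0.00046 to 0.073) and *Arg1* (−0.072 to 0.011) in marker-rich spots at 0 h.

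Of the members' values under these alternatives, 705 of time, 835 of zones and 775 of marker-rich spots kept direction and call. In the same order 26, 31 and 6 turned direction and 22, 48 and 52 lost the call, while 24 of time and 17 of zones gained one.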

Other observations

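Under 2 other definitions of the injured regions, spots low in hepatocyte transcripts could be compared with spots at least 3 steps away in 48 h sections. All 7 urea cycle genes were lower in the low spots, with log2 ratios of −2.10 to −1.52 when *Cyp2e1* was added to the hepatocyte genes (4 sections, 61.8% of all genes called) and −2.23 to −1.63 with the 5th percentile as the limit (3 sections, 59.9% of all genes called). In the ring of spots touching the low spots, all 7 were lower too, at −0.82 to −0.40 (43.7% of all genes) and −0.85 to −0.43 (39% of all genes). The hepatocyte genes chose these spots, so the lower level of other hepatocyte genes in them is a description.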
